A study of Mus musculus with 84 samples.

Results

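The 10 core circadian clock genes Arntl, Clock, Per1, Per2, Per3, Cry1, Cry2, Nr1d1, Nr1d2 and Dbp were followed across 84 lists of histone mark peaks from mouse adipocyte nuclei. They were chosen by name and are 10 of the 21851 genes that GENCODE lists as protein-coding in GRCm38. Each was read as its promoter (2000 bp either side of every annotated start site) and as its locus (the gene body with 50 kb on either side). In CUT&Tag, the assay used, a transposase tethered to an antibody cuts the DNA around the marked histone. H3K4me3 was profiled in 21 libraries, H3K27ac in 21, H3K4me1 in 22 and H3K27me3 in 20.

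All mice carried the NuTRAP reporter and the tamoxifen-inducible AdipoERCre, so that only cells in which an adipocyte promoter drove Cre were tagged, and all received tamoxifen before the diets. Nuclei came from epididymal fat, a visceral depot. In the cohort fed for 12 weeks, control mice on chow (C) and obese mice after 12 weeks of high-fat diet (H) were 18 weeks old. Their counterparts at 26 weeks were chow controls (CC_s) and mice returned to chow for 8 weeks after the high-fat diet (HC). In the cohort fed for 25 weeks, chow controls (CC_l) and obese mice (HH) were 31 weeks old. At 39 weeks there were chow controls (CCC) and mice returned to chow for 8 weeks (HHC). Each group held 2 or 3 libraries per mark. The titles of 4 H3K4me3 libraries name another diet group than their treatment field, and the titles were followed. The reporting form of the study describes the libraries of a group as biological replicates.

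The clock is a feedback loop of transcription that runs in nearly every cell. ARNTL (BMAL1) and CLOCK bind E-boxes as a pair and switch on the Per and Cry genes, whose proteins then repress that pair. REV-ERB proteins, encoded by Nr1d1 and Nr1d2, repress Arntl through ROR elements, and DBP, an output of the loop, acts on D-boxes. The clock of fat cells is known to time lipid handling and adipokine release. The hour at which tissue was taken is not given in the sources used here, so that differences in time of day between groups cannot be told apart from diet.

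Promoter sequence was taken from the RefSeq table of GRCm38.p6, in which 9 of the 10 genes had an entry, each running from 250 bases before to 50 bases after a start. The stretches that lie outside exons and hold a clock motif are shown, 5′ to 3′ on the strand of the gene, because these are the elements through which the genes regulate each other. Capitals mark CACGTG (E-box), AACGTG (an E-box variant) and TTATGTAA (D-box).
Cry1, chr10:85185065-85185304, minus strand: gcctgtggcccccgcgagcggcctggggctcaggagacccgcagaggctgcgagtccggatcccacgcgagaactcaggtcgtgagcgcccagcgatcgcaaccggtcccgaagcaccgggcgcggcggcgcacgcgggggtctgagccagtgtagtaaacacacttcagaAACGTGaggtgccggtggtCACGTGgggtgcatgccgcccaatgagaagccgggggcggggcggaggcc
Cry2, chr2:92434086-92434319, minus strand: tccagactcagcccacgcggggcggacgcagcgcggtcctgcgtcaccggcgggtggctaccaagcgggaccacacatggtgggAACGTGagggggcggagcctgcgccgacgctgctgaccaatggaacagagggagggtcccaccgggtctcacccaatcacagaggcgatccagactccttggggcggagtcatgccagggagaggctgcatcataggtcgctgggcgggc
Nr1d1, chr11:98775378-98775410, minus strand: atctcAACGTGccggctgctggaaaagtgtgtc
Per3, chr4:151044708-151044852, minus strand: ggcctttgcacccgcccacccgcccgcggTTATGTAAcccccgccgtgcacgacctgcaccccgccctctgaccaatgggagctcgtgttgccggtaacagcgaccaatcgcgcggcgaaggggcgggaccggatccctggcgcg

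Motifs were searched on both strands in all 32851 rows of that table. CACGTG was found in 7.15% of rows and in those of Per1 and Cry1, the Per1 match lying in a transcribed stretch. The variant CACGTT, which reads AACGTG on the other strand, stood in 4.68% of rows and in those of Cry1, Cry2 and Nr1d1. TTATGTAA stood in 0.938% of rows and, among the clock genes, in Per3, while TTACGTAA stood in 0.119% and in none of them. The ROR element TAGGTCA stood in 2.61% of rows and in that of Arntl, where it lies 30 bases past the start, in an exon. TGGGTCA (3.98% of rows) and TGACGTCA, the cAMP response element (1.79%), were in none of the 9 genes. A match describes these letters in this window and is not evidence of a bound site.

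The lists held between 11249 and 46397 peaks per library with median widths of 332 to 2658 bp, and the depth behind them is not given beyond a stated minimum, so that coverage values were compared only by rank within a library. Libraries of the 12-week cohort, and those of H and HC most of all, tended to have narrower peaks, but single libraries of the cohorts overlapped in every mark. In H3K27me3 the median peak width was 1242, 1261 and 1425 bp in C and 1273 and 1259 bp in CCC. In H3K27ac the median peak width was 1765, 1648 and 1372 bp in C and 801, 477 and 700 bp in H. H3K27ac CCC replicate 3 stood apart, with 14917 peaks over 20.9 Mb against 32907 peaks over 94.3 Mb in CCC replicate 1. Adipocyte markers (Adipoq, Plin1 and others) carried an H3K4me3 promoter peak for 4 to 7 of 7 genes per library, with a median of 7. Of 7 macrophage markers, 0 to 3 were marked in control libraries, 0 to 7 in H, 0 to 5 in HC, 6 to 7 in HH and 6 in each HHC library. Lymphocyte markers reached 3 to 4 of 4 in HHC. Controls were marked at other lists too. Of 4 stromal progenitor markers, 3 were marked in each C, CC_l, CCC, HH and HHC library, 0 to 1 in CC_s, 0 to 3 in H and 2 to 3 in HC. Of 4 endothelial markers, 1 to 3 were marked in C, 0 in CC_s, 2 to 4 in CC_l and 1 in CCC. They stood at 0 to 4 in H, 1 to 4 in HC, 4 in HH and 3 to 4 in HHC. Mesothelial (4) and mural (3) markers reached at most 2 in any library. The part of these cells, and of the cohort's library preparation, in the results below was not tested.

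The clock promoters carried the active marks in nearly every library. H3K4me3, the mark of promoters in use, was present at 9 of the 10 genes in all 21 libraries, whereas 39.2% of all genes were marked in all of them. The exception was Clock, marked in 20 libraries and without a peak in H replicate 3. H3K27ac, found at active promoters and enhancers, lay on 8 of the 10 in all 21 libraries against 8.67% of all genes. Clock had H3K27ac in 11 libraries and Cry1 in 15. H3K27me3, the Polycomb mark of silenced genes, touched a clock promoter 3 times in 20 libraries, as peaks of 1208 bp at Arntl in HHC replicate 1, 363 bp at Per1 in H replicate 1 and 499 bp at Dbp in HH replicate 3.

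H3K4me1, which is depleted at the centre of strong promoters and lies around them and at enhancers, varied far more between libraries, with 6.09% to 51.4% of all genes marked per library. Nr1d1 was the clock gene marked in all 22 libraries. Clock had no H3K4me1 promoter peak in any library and Cry1 had one in 3. For Per1, Per2, Per3, Cry2, Nr1d2 and Dbp every one of the 10 libraries of the 25-week cohort was marked, but only 4 to 8 of the 12 libraries of the 12-week cohort. Cohort and library preparation cannot be told apart here.

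By rank of H3K4me3 width, the activators Arntl and Clock had the narrowest promoters of the 10 and Per1, Cry2, Dbp, Nr1d1 and Per2 the widest. Peak width at a promoter was taken as the summed full width of the peaks that touch its windows, and ranked among all marked promoters of the same library. For H3K4me3 the median percentile over libraries was 99.0 at Per1, 97.0 at Cry2, 97.0 at Dbp, 95.8 at Nr1d1 and 93.4 at Per2. It was 77.7 at Per3, 73.7 at Cry1, 72.1 at Nr1d2, 58.1 at Arntl and 52.5 at Clock. Per1 stayed between 97.5 and 99.7 in every library. Arntl, Clock and Per1 have 3 or 4 start sites and so larger windows (8094 to 9306 bp), against 4001 to 4197 bp for the others, but Arntl and Clock were narrow all the same.

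H3K27ac gave nearly the same order. The median percentile of width was 97.9 at Per1, 94.9 at Cry2, 93.4 at Per2, 92.2 at Nr1d1 and 91.9 at Dbp. At Nr1d2 and Per3 it was 72.7 each, at Cry1 51.6, at Arntl 26.2 and at Clock 18.9 (the last over the 11 marked libraries). The ranges over libraries overlap for most neighbours in this order. Peak height ranked otherwise: by maximum coverage Nr1d2, of middling width, held the highest H3K4me3 median, 98.1, never falling below 95.5, ahead of Per1 (92.2) and Dbp (91.5), with Clock lowest at 30.7.

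**Figure D1:**
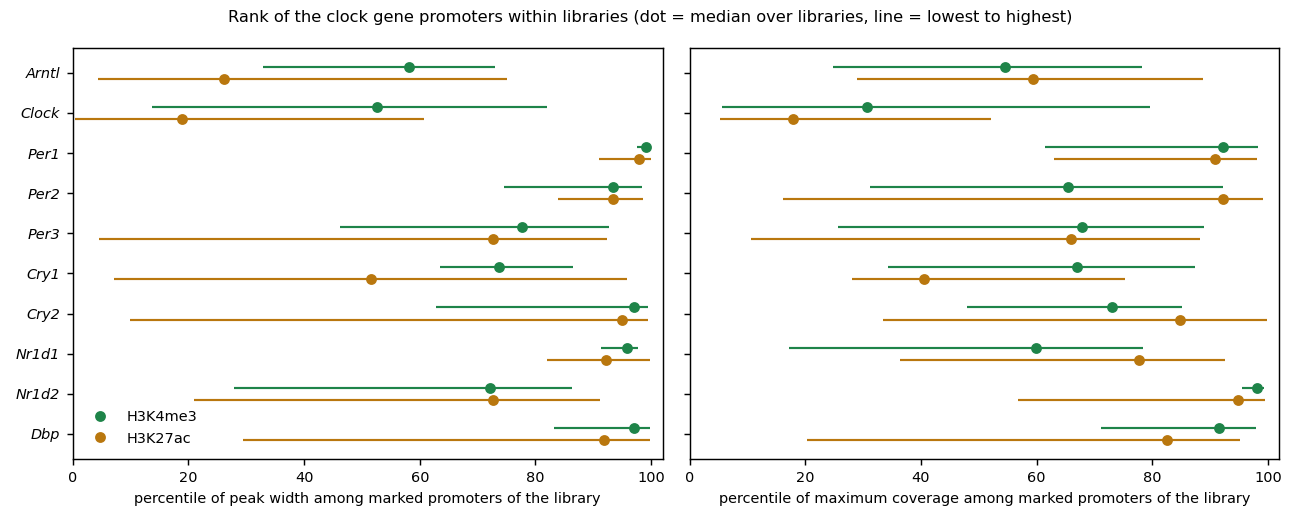
Percentile (0 to 100) of each clock gene promoter among the marked promoters of the same library, by peak width and by maximum coverage, for H3K4me3 and H3K27ac; dots are medians over libraries and lines run from the lowest to the highest library. Per1 lies at a median of 99.0 for H3K4me3 width with a short line, whereas Arntl and Clock lie lower (58.1 and 52.5) with long ones.

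No clock gene gained or lost a promoter peak with diet. A gain was called where every library of the diet group and no library of its age-matched control group had a peak, and a loss where the reverse held. In H3K4me3, 0 of the 10 genes were called in each comparison, against 2.7% of tested genes for H against C, 0.551% for HC against CC_s, 2.61% for HH against CC_l and 2.51% for HHC against CCC. In H3K27ac, 0 of 10 were called against a background of 4.24%, 1.48%, 1.37% and 3.85% in the same order. In H3K4me1, 0 of the 8 or 9 clock genes with a peak were called, against 3.26%, 1.03%, 4.84% and 7.25%. In H3K27me3 at most 1 clock gene had a peak to compare, and 0 were called against 11%, 3.34%, 5.52% and 5.6%. With backgrounds this low, 0 of 10 is near what the share over all genes would give.

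Among the activators, the H3K4me3 peak at Arntl was narrower in H than in C in bp, a direction that turned relative to each library's median promoter. At Arntl, H3K4me3 widths were 2713, 2561 and 2842 bp in C, 2363, 2182 and 1106 bp in H, 1454, 2007 and 2796 bp in CC_s, and 2093, 1452 and 1529 bp in HC. They were 3157 and 2807 bp in CC_l, 3728 and 3097 bp in HH, 3214 and 2503 bp in CCC, and 3908, 3122 and 2773 bp in HHC. Widths moved with the library, however, and relative to each library's median promoter (centred widths) the difference at Arntl was 0.21 ± 0.22 (log2, SE) for H against C and 0.04 ± 0.17 for obese minus control over both cohorts.

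At Clock, the H3K4me3 widths ran from 819 bp in CC_s replicate 2 to 3424 bp in C replicate 3. H replicate 3 had no peak there, while H replicates 1 and 2 had 1408 and 3096 bp. The centred obese difference was -0.61 ± 0.41 (log2, SE), the most negative of the 10 genes, with an adjusted p of 0.708 in limma. It was -0.21 without H replicate 3, the library with no peak. In H3K27ac, Clock was marked in 1 of 3 C libraries (1940 bp), 1 of 3 H (626 bp), 1 of 2 CC_s (1073 bp) and 1 of 3 HC (691 bp). In the older cohort it was marked in 2 of 2 CC_l libraries (673 and 2137 bp), 2 of 3 HH (932 and 1608 bp), 1 of 2 CCC (1545 bp) and 2 of 3 HHC (1194 and 2957 bp).

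Of the repressors, Per1 ranked highest by H3K4me3 width, while the median width in bp was larger at Cry2 (8432 bp against 8045 bp). Its widths were 7775, 9816 and 9719 bp in C, 6283, 7155 and 5193 bp in H, 5582, 5737 and 7574 bp in CC_s, and 5927, 5283 and 8045 bp in HC. In the 25-week cohort they were 7296 and 9746 bp in CC_l, 11217 and 16615 bp in HH, 10036 and 18265 bp in CCC, and 14560, 16348 and 10350 bp in HHC. The HH libraries both exceeded both CC_l libraries, HHC overlapped CCC, and H lay below C. This opposite order of the 2 obese groups held on the raw scale only: centred, H exceeded C by 0.21 ± 0.26 (log2, SE) and HH exceeded CC_l by 0.37 ± 0.32, and neither difference was called.

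Per2 ranged from 1996 bp (CC_s replicate 1) to 7950 bp (HH replicate 2), Per3 from 1117 bp (H replicate 3) to 5038 bp (CCC replicate 3) and Cry1 from 1439 bp (H replicate 3) to 5343 bp (HHC replicate 2). Cry2, whose product represses the activator pair as CRY1 does, had H3K4me3 widths of 10415, 8595 and 8662 bp in C, 5783, 4419 and 1274 bp in H, 2676, 4233 and 7853 bp in CC_s, and 4362, 3556 and 4887 bp in HC. It had 6349 and 8777 bp in CC_l, 9453 and 12444 bp in HH, 15002 and 15506 bp in CCC, and 8492, 15170 and 8432 bp in HHC. H lay wholly below C, and 2 of 3 HHC libraries fell far below both CCC libraries while the third lay between them.

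Nr1d1 was 5600, 6240 and 6831 bp wide in C and 5089, 4894 and 2868 bp in H, without overlap, and spanned 3469 to 12249 bp over the other groups. Centred, its difference for H against C was 0.20 ± 0.19 (log2, SE). Nr1d2 spanned 1406 bp (H replicate 3) to 5199 bp (HH replicate 2). Dbp, the output transcription factor, had the widest single value, 22317 bp in HHC replicate 2. Its widths were 17582 and 7338 bp in the other HHC libraries, 18780 and 10028 bp in CCC, 6671 and 9581 bp in HH and 6429 and 6420 bp in CC_l. On the raw scale HHC and CCC overlapped, and both groups of 39-week-old mice held wider peaks at Dbp than CC_l. Their H3K4me3 peaks also covered 78.2 and 79.4 Mb in CCC and 73.0, 100.5 and 92.3 Mb in HHC, against 50.8 and 75.9 Mb in CC_l. The difference between ages was not tested on centred widths. Peaks this wide reach beyond the Dbp promoter windows and may take in neighbouring genes.

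**Figure D2:**
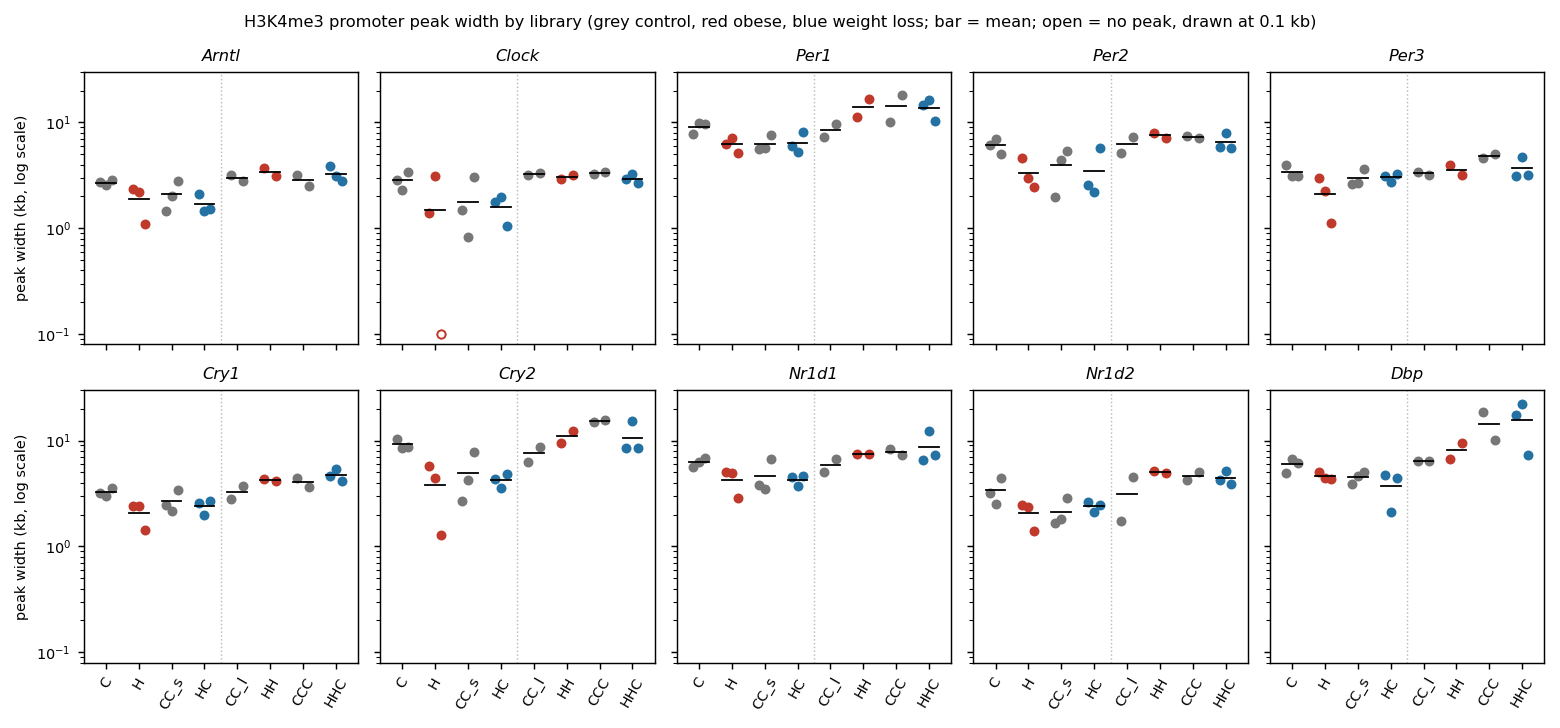
H3K4me3 promoter peak width (kb, log axis) of each clock gene in each of the 21 libraries by diet group; grey is control, red obese and blue weight loss, bars are group means, and an open symbol marks a library with no peak. Clock in H replicate 3 is the one open symbol, and Cry2 in H (5783, 4419 and 1274 bp) lies below C (10415, 8595 and 8662 bp).

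None of these H3K4me3 differences passed the test. Widths were compared in limma on log2(width + 200 bp) after centring each library on its median promoter, with both cohorts averaged. In the obese comparison 0 of 10 clock genes were called at an adjusted p under 0.05, and 0 had an unadjusted p under 0.05, against 0.0861% of 12770 promoters called. After weight loss 0 of 10 were called and 1, Cry2, had an unadjusted p under 0.05, against 0.439% called. The Cry2 difference after weight loss was -0.42 ± 0.19 (log2, SE, adjusted p = 0.378). The median over the 10 was 0.07 for obese and -0.17 for weight loss, beside -0.04 and -0.02 over all promoters.

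H against C alone called 1.95% of promoters in H3K4me3 and 0 of the 10 clock genes. Cry2 came closest, at -0.70 ± 0.25 (log2, SE, adjusted p = 0.153 in limma).

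H3K27ac at Cry2 ranged from 341 to 15867 bp between libraries, and at Dbp from 481 to 20581 bp. The Cry2 widths were 14973, 12080 and 7940 bp in C but 459, 937 and 869 bp in H. They were 4348 and 4728 bp in CC_s and 341, 3441 and 712 bp in HC. In the 25-week cohort they were 14835 and 15670 bp in CC_l, 1614, 14388 and 14770 bp in HH, 15867 and 3629 bp in CCC and 4214, 14123 and 4224 bp in HHC. Every H library lay below every C library and every HC library below both CC_s libraries. The HH libraries lay below both CC_l libraries, 2 of the 3 by little, and HHC lay within the range of CCC.

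The rank of Cry2 within its library varied as well. By H3K27ac width Cry2 was at percentiles 99.4, 99.1 and 98.0 in C and at 9.86, 76.8 and 66.6 in H. It was at 94.9 and 92.9 in CC_s, at 11.2, 95.7 and 20.2 in HC, at 98.8 and 98.9 in CC_l and at 25.8, 98.7 and 98.3 in HH. In the oldest mice it was at 98.3 and 92.7 in CCC and at 70.8, 96.8 and 75.5 in HHC. H lay wholly below C and HH wholly below CC_l, the latter 2 of 3 libraries by little, while HC replicate 2 ranked above both CC_s libraries and HHC overlapped CCC. In C the peaks touching the Cry2 promoter window reached well beyond it, and only 3680, 3335 and 2933 bp lay inside it, whereas in H the whole width lay inside it.

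On the centred scale Cry2 H3K27ac width differed by -1.42 ± 0.63 (log2, SE) in the obese comparison (unadjusted p = 0.0317, adjusted p = 0.409 in limma). After weight loss the difference was -1.86 ± 0.66 (unadjusted p = 0.00944, adjusted p = 0.204). It was negative in each of the 4 comparisons within a cohort: -1.80 ± 0.83 for H against C, -1.39 ± 0.93 for HC against CC_s, -1.04 ± 0.93 for HH against CC_l and -2.32 ± 0.93 for HHC against CCC. Under all 33 other settings of the analysis the averaged obese value stayed negative, between -2.35 and -0.29, and so did the weight loss value, between -2.39 and -1.11. The obese value of -0.29 was that for base pairs inside the promoter window alone, whereas full widths also count base pairs outside it. Over the whole Cry2 locus, covered H3K27ac differed by 0.02 ± 0.24 for obese (adjusted p = 0.979 in limma). For weight loss it differed there by -0.52 ± 0.25 (adjusted p = 0.209).

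On the raw scale Per2 and Per3 had narrower H3K27ac peaks in H than in C and in HC than in CC_s. Per2 widths were 6049, 6377 and 6265 bp in C, 2002, 1124 and 1290 bp in H, 6985 and 6835 bp in CC_s and 2449, 3820 and 3870 bp in HC. Per2 was 7071 and 5917 bp wide in CC_l, 8241, 6214 and 6619 bp in HH, 9447 and 4160 bp in CCC and 5866, 9821 and 6659 bp in HHC. The groups of the 12-week cohort did not overlap and those of the 25-week cohort did.

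Per3 widths were 3265, 3584 and 2724 bp in C, 1758, 272 and 770 bp in H, 2495 and 2903 bp in CC_s and 669, 389 and 915 bp in HC. They were 3757 and 4160 bp in CC_l, 5865, 3767 and 1803 bp in HH, 3641 and 1599 bp in CCC and 3254, 3744 and 4411 bp in HHC. The pattern was again one of separation in the younger cohort alone on the raw scale. Centred, the weight loss difference was -1.15 ± 0.49 at Per2 (adjusted p = 0.278 in limma) and -1.35 ± 0.53 at Per3 (adjusted p = 0.251), while the obese differences were -0.01 ± 0.46 and -0.07 ± 0.50. For H against C alone the centred differences were -0.15 ± 0.62 at Per2 and 0.02 ± 0.67 at Per3, both smaller than their standard errors.

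Arntl, marked in all 21 libraries, had H3K27ac widths of 2918, 2807 and 2099 bp in C, 547, 594 and 894 bp in H, 960 and 2332 bp in CC_s and 575, 652 and 647 bp in HC. In the 25-week cohort HH overlapped CC_l, and HHC (1160, 1956 and 4114 bp) lay above CCC (1152 and 829 bp), the nearest pair almost touching. Centred, both raw directions turned: Arntl differed by 0.14 ± 0.76 (log2, SE) for H against C and by -1.08 ± 0.85 for HHC against CCC, and neither was called. Nr1d2 went the other way in HH, with 5358, 6683 and 6215 bp against 2445 and 3140 bp in CC_l, 3025, 2253 and 2675 bp in C and 2381, 820 and 635 bp in H. The averaged obese difference at Nr1d2 was 0.90 ± 0.41 (log2, SE, adjusted p = 0.435 in limma), and it was -0.02 without centring, where the median promoter shifted by -0.71.

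**Figure D3:**
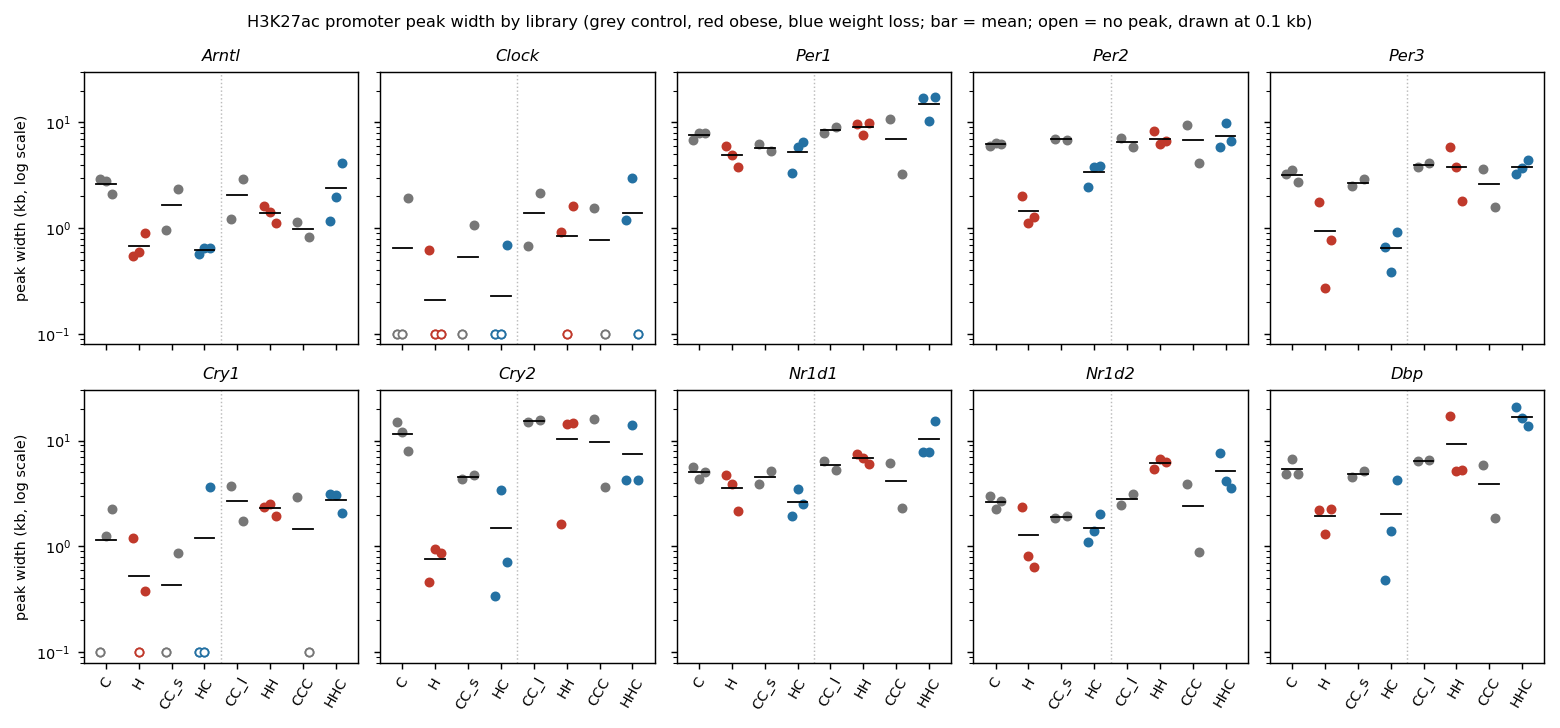
H3K27ac promoter peak width (kb, log axis) of each clock gene in each of the 21 libraries by diet group; grey is control, red obese and blue weight loss, bars are group means, and an open symbol marks a library with no peak. Cry2 lies at 459, 937 and 869 bp in H below 14973, 12080 and 7940 bp in C, and Nr1d2 in HH (5358, 6683 and 6215 bp) lies above CC_l (2445 and 3140 bp).

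For H3K27ac width 0 of 10 clock genes were called in the obese comparison, with 2 (Cry2 and Nr1d2) at an unadjusted limma p under 0.05, against 0.954% of 9329 promoters called. After weight loss 0 were called, with 3 (Per2, Per3 and Cry2) at an unadjusted p under 0.05, against 0.0107% called. The median difference over the 10 was 0.28 for obese and -0.57 for weight loss, beside 0.22 and -0.28 over all promoters. Within cohorts 0 were called, against 2.52% for H against C, 0.0429% for HC against CC_s, 0.0% for HH against CC_l and 0.0% for HHC against CCC. The median promoter itself differed by 0.49 for H against C and by -0.51 for HHC against CCC.

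The weight loss values rest in part on the library that stood apart. Without H3K27ac CCC replicate 3, 0 clock genes were called and the differences were -1.41 ± 0.74 at Cry2, -0.47 ± 0.43 at Per2, -0.66 ± 0.50 at Per3 and 0.08 ± 0.57 at Arntl. Without CCC replicate 1, which leaves replicate 3 as the only CCC library and assumes that it varies like the others, 4 were called: Cry2 at -2.30 ± 0.74, Per3 at -2.04 ± 0.50, Per2 at -1.83 ± 0.43 and Arntl at -1.65 ± 0.57 (adjusted p = 0.0381, 0.0151, 0.0135 and 0.049 in limma).

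**Figure D4:**
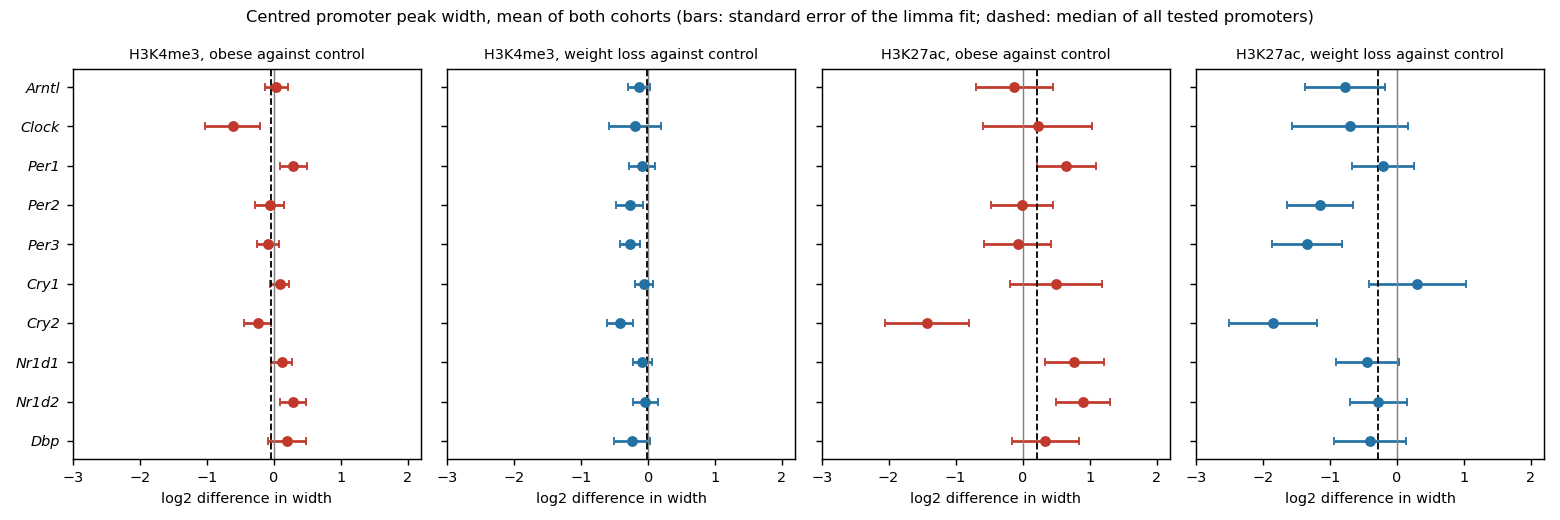
Difference in centred promoter peak width (log2) of each clock gene for H3K4me3 and H3K27ac, obese and weight loss against control, averaged over both cohorts; bars are standard errors and the dashed line is the median of all tested promoters. Cry2 H3K27ac lies at -1.42 (obese) and -1.86 (weight loss), and no gene passed the adjusted test.

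H3K4me1 promoter width could be tested for 8 clock genes, those marked in at least 50% of libraries. At Nr1d1, the one marked throughout, widths were 9258, 6136 and 2233 bp in C, 3709, 3419 and 4083 bp in H, 2837, 4438 and 10073 bp in CC_s and 2890, 1436 and 883 bp in HC. They were 6205 and 12891 bp in CC_l, 3463, 12554 and 12596 bp in HH, 9658 and 12890 bp in CCC and 12760, 12870 and 15824 bp in HHC. Diet and control groups overlapped in all 4 comparisons. In limma 0 of 8 were called, and 0 had an unadjusted p under 0.05, for obese (0.0% of 4406 promoters called) and for weight loss (0.0%). In H3K27me3 no clock promoter was marked often enough to test, while 0.637% of promoters were called for obese and 8.7% for weight loss.

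Whether the effect of diet differed between the cohorts was tested as a contrast of its own in each mark, for width and for locus. It was called for 0 clock genes and for 0.0% of all genes in every case. At Cry2 H3K27ac width the cohort difference (25-week minus 12-week) was 0.76 ± 1.25 for obese and -0.93 ± 1.32 for weight loss (adjusted p = 0.972 and 0.807 in limma). These standard errors are too wide to show that the cohorts acted alike.

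Across each locus, covered base pairs from 50 kb before to 50 kb after the gene were compared in the same way. These windows hold neighbours (Thra at Nr1d1, Hes6 at Per2, Vamp2 and Hes7 at Per1), so that a difference need not lie at the clock gene. For H3K4me3, 0 of 10 were called in the obese comparison (0.924% of 17107 loci called; 2 clock genes at an unadjusted p under 0.05) and 0 after weight loss (2.98%; 1). For H3K27ac, 0 of 10 were called for obese (1.82% of 15929; 2) and 0 for weight loss (1.1%; 1). For H3K4me1, 0 of 10 were called for obese (7.27% of 14808; 1) and 0 for weight loss (2.34%; 1).

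Nr1d2 and Arntl came nearest to a call in these loci. At Nr1d2 the H3K4me3 covered 5912, 7022 and 8270 bp in C, 6706, 7961 and 3123 bp in H, 4731 and 10930 bp in CC_l and 13460 and 13670 bp in HH. H overlapped C, and both HH libraries were above both CC_l libraries. The averaged obese difference was 0.58 ± 0.15 (log2, SE, adjusted p = 0.0712 in limma). For H against C alone it was 0.67 ± 0.19 (adjusted p = 0.0444, 1 of 10 clock genes against 5.96% of loci), but -0.33 without centring, and the call was lost when any of 5 of the 6 C and H libraries was left out.

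At Arntl the H3K27ac covered 11408, 14190 and 15064 bp in C, 6351, 1965 and 1808 bp in H, 6007 and 13245 bp in CC_s and 1903, 3445 and 4285 bp in HC. In the older cohort it covered 21040 and 25323 bp in CC_l, 20710, 20754 and 23202 bp in HH, 30270 and 8494 bp in CCC and 11960, 28523 and 24758 bp in HHC. HC lay below CC_s and HHC within CCC. The weight loss difference was -1.05 ± 0.27 (log2, SE, adjusted p = 0.0565 in limma), or -0.85 ± 0.29 (adjusted p = 0.30) without CCC replicate 3. In H3K4me3 the Arntl locus differed by -0.53 ± 0.20 after weight loss (adjusted p = 0.135).

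Inside these loci, H3K27ac was shared by every library at a few fixed places outside all promoter windows. Of 953 such stretches in the genome, 13 fell in the loci of 5 clock genes: 5 in the Per2 gene (at 2.72 to 3.3 kb and 22.7 to 23.2 kb past its start), 4 in the Cry2 gene (2.71 to 10.1 kb past its start), 2 near Nr1d1 (1 of them in Thra), 1 at 5.71 kb before Arntl and 1 at 32.2 kb before Per1. The share of all gene loci that hold such a stretch was not computed, so that these counts show no trait of the clock genes. Some stretches lie close together, as in Per2, and need not be separate elements. The 4 in Cry2 by definition include the H libraries, in which the promoter peak was at most 937 bp wide. They carried an H3K4me1 peak in 20 to 22 of 22 libraries, and the Arntl stretch in 20. The Per1 stretch instead had H3K4me1 in 2 of 22 libraries and H3K4me3 in all 21. H3K4me3 was not particular to the Per1 stretch, as the others met an H3K4me3 peak in 15 to 21 of 21 libraries.

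The middle 300 bases of the Arntl stretch and of the longest Cry2 stretch are shown, plus strand of GRCm38.p6, because they held H3K27ac in every library; they were picked after the data were seen. Capitals mark TGGGTCA, a ROR element variant, which the Arntl stretch and 7.19% of the 640 stretches of at least 300 bases contained. No other motif of those searched above was found in the 9 such stretches of the clock genes.
Arntl, chr7:113201607-113201906: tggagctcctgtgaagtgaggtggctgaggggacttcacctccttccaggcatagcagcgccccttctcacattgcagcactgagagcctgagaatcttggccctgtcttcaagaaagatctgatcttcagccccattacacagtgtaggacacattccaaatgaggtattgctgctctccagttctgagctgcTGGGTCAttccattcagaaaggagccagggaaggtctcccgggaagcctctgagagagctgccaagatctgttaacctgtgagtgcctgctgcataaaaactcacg
Cry2, chr2:92427860-92428159: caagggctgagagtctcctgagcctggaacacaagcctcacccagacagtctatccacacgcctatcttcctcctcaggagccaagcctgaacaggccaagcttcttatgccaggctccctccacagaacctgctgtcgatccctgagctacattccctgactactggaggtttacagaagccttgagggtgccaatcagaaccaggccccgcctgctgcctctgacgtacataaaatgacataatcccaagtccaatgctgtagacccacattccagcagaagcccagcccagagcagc

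**Figure D5:**
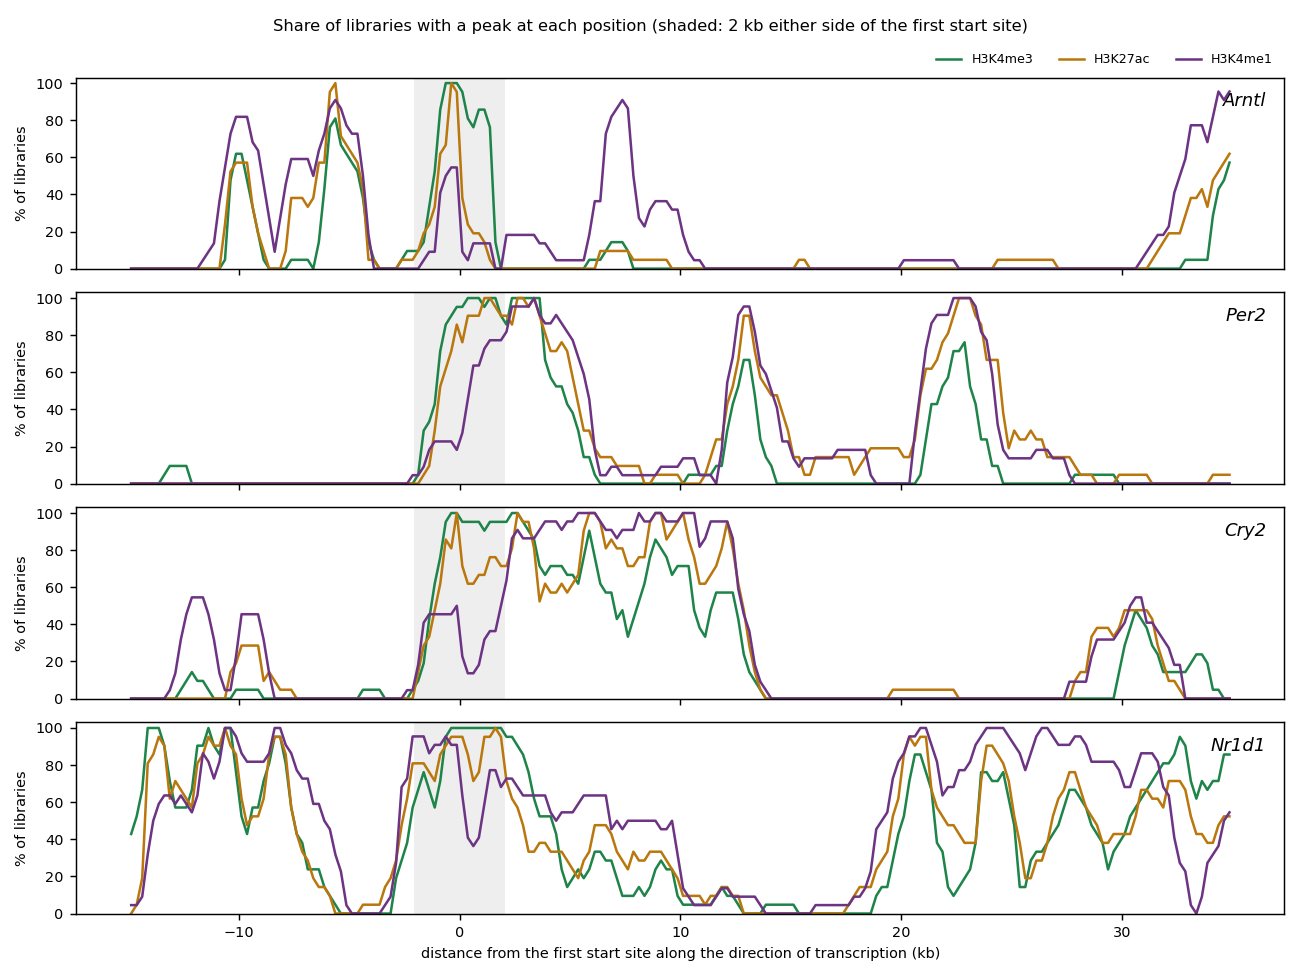
Percent of libraries with an H3K4me3, H3K27ac or H3K4me1 peak at each distance from the first start site (kb, in the direction of transcription) for Arntl, Per2, Cry2 and Nr1d1; shading spans 2 kb either side of the start. H3K27ac reaches all libraries before Arntl (5.71 kb), inside Per2 (out to 23.2 kb) and inside Cry2 (out to 10.1 kb), and H3K4me1 dips at the start sites of Cry2 and Nr1d1.

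Distal H3K4me1 regions, those free of promoter windows and of H3K4me3 in every library, numbered 26064. Of these, 15 lay within the clock genes or 50 kb of them: 5 at Clock, 4 at Arntl, 2 each at Cry1 and Nr1d2, 1 each at Per2 and Per3 and 0 at Per1, Cry2, Nr1d1 and Dbp. A region was dropped if it met an H3K4me3 peak of any 1 library, so that low counts do not mean that H3K4me1 was absent. Outside promoter windows, 2158 bases at Cry2, 3200 at Nr1d1 and 1157 at Per2 carried H3K4me1 in all 22 libraries. None was present in 50% or more of the H3K4me1 libraries, as 4.22% of all such regions were. H3K27ac was met in any library by 4 of the 15 (26.7%), against 49.5% of all such regions. By the gain and loss rule 0 were called for H against C (3.16% of tested regions), 0 for HC against CC_s (1.12%) and 0 for HH against CC_l (8.0%). For HHC against CCC 1 was called (4.9%): a region of 2680 bp, 4.98 kb before Cry1, at chr10:85188701-85191380, present in 2 of 2 CCC and 0 of 3 HHC libraries. It was found in 3 of 22 libraries in all and never with H3K27ac.

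H3K27me3 in the loci gave the only averaged calls, and these lay in the flanks. In the Clock locus it covered 0, 0 and 0 bp in C, 1993 and 1266 bp in H, 0, 0 and 1306 bp in CC_s and 918, 0 and 872 bp in HC. It covered 1918 and 1965 bp in CC_l, 2684 and 0 bp in HH, 0 and 0 bp in CCC and 11784, 2976 and 12761 bp in HHC. HHC thus lay wholly above CCC, H above C, and HC overlapped CC_s. None of this lay in the Clock gene except 287 bp in H replicate 2; the rest lay toward Pdcl2 and Nmu or beyond the other end.

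The weight loss difference at the Clock locus was 3.04 ± 0.75 (log2, SE, adjusted p = 0.00549 in limma). It stayed positive, between 1.63 and 4.35, in the 27 other settings in which the locus was tested, those without each library included. The locus was marked in 11 of 20 libraries, and most control libraries held 0 bp. It thus passed the filter largely through the diet groups, and settings that use the filter are not independent support for the call. With no filter the difference was 2.57 ± 0.90 (adjusted p = 0.0362 in limma). Clock was 1 of 6 clock loci tested, against a background of 27.2% of 13252 loci, so that 1 of 6 is not above the share over all genes. For HHC against CCC alone it was 4.52 ± 1.12 (adjusted p = 0.0329; 1 of 6 against 3.93%), lost without CCC replicate 1 or 3 or HHC replicate 1 or 3. Against groups at 0 bp these fitted values depend on the 200 bp added before the log.

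In the Cry1 locus H3K27me3 covered 0, 1317 and 0 bp in C, 3958 and 4616 bp in H, 3109, 2655 and 2417 bp in CC_s and 750, 294 and 2203 bp in HC. It covered 9336 and 0 bp in CC_l, 7592 and 2728 bp in HH, 1125 and 2558 bp in CCC and 8452, 0 and 4573 bp in HHC. H lay above C and HC below CC_s, and the groups of the older cohort overlapped. None of it lay in the Cry1 gene. The obese difference was 3.15 ± 1.00 (log2, SE, adjusted p = 0.0366 in limma), 1 of 6 clock loci against 12.3% of all loci. The call was lost without C replicate 1 or 3, H replicate 1 or 2, CC_l replicate 2, or HH replicate 2 or 3.

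For H against C alone, Cry1 differed by 4.48 ± 1.34 and Clock by 4.13 ± 1.12 (adjusted p = 0.025 and 0.0143 in limma), 2 of 6 clock loci against 14.9%. The H libraries held narrower H3K27me3 peaks, with medians of 549 and 592 bp against 1242, 1261 and 1425 bp in C. No base of either locus outside promoter windows carried H3K27me3 in more than 6 of the 20 libraries, and the Nr1d1 locus had none in all 20.

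Further genes of the clock pathway were read in the same way, from a list of 20. By the gain and loss rule Rora, an activator acting through ROR elements, lost its H3K27ac promoter peak in H against C (15 tested, background 4.24%). Npas2, a partner of ARNTL, lost its H3K27ac promoter peak in HH against CC_l (1 of 19 against 1.37%).

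In H3K4me1, HH against CC_l gained Arntl2, Rorb and Bhlhe41 and lost Nfil3 (3 gained and 1 lost of 18 tested, background 4.84%). HHC against CCC gained Bhlhe41 (1 of 20 against 7.25%). H3K27me3 promoter peaks were gained at Npas2 in H (1 of 7 against 11%) and in HHC (1 of 9 against 5.6%). One was gained at Usp2 in HH (1 of 10 against 5.52%). In H3K4me3 width 0 of 20 were called in the averaged comparisons (4 at an unadjusted limma p under 0.05 for obese and 3 for weight loss). In H against C alone (background 1.95%) Usp2 fell by 2.30 and Csnk1e by 1.95 (log2, limma adjusted p = 0.0221 and 0.00639). Widths at Csnk1e were 4006, 4277 and 3527 bp in C and 1053, 821 and 0 bp in H. In H3K27ac width 0 of 15 were called in limma (1 at an unadjusted p under 0.05 for obese and 6 for weight loss), and in H3K4me1 width 0 of 11 (2 and 1).

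Over the H3K4me3 loci, Usp2 fell by 0.61 in the obese comparison (adjusted p = 0.0352 in limma), with 21440, 28046 and 27343 bp in C against 9538, 7251 and 2442 bp in H but 24825 and 31051 bp in CC_l against 35503 and 34470 bp in HH. In H against C alone, Usp2 fell by 1.15 and Csnk1e by 1.62 (2 of 20 against 5.96% of loci, beside 1 of 20 against 0.924% for obese).

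In H3K4me1 loci Tef, a PAR bZIP relative of Dbp, fell by 1.39 in the obese comparison, while Wee1, a cell cycle kinase under clock control, rose by 2.96. At Wee1 the values were 0 bp in all C and CC_s libraries, 1841, 1984 and 0 bp in H, 1660 and 0 bp in CC_l and 7787, 7878 and 6951 bp in HH. After weight loss Wee1 rose by 4.13, with 0 and 0 bp in CCC against 13540, 6034 and 19311 bp in HHC. The backgrounds were 7.27% for obese and 2.34% for weight loss. Apart from the 1660 bp in CC_l, control libraries held 0 bp at Wee1. The locus thus passed the filter through the diet groups, and its fitted values depend on the 200 bp added before the log. Its obese call held in 3 of 7 other settings and in 4 of 11 fits without 1 library. The weight loss call held in 7 of 7 and 9 of 11. These tallies cover only the fits in which Wee1 was still tested, whereas Tef was tested in 11 other settings and 22 fits without 1 library. Fits that use the filter are not independent support for the Wee1 calls. In H against C alone Tef fell by 1.89 (background 7.62%), and in HC against CC_s Bhlhe40 rose by 1.99 (1 of 20 against 1.29%).

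In H3K27me3 loci, 14 pathway genes were tested. For obese 3 were called against the 12.3% of all loci: Npas2 rose by 3.47, Fbxl21 rose by 2.38 and Cipc fell by 0.86. After weight loss Npas2 rose by 3.30 and Usp2 by 3.23, and Cipc fell by 0.73, again 3 of 14 against the 27.2% of all loci given above. For H against C 6 of 14 were called against 14.9% of all loci: Npas2, Rora, Ciart, Fbxl21 and Usp2 upward by 3.40 to 4.35 and Cipc downward by 1.30. H held 2 H3K27me3 libraries. Among other settings in which the locus was tested, the call held in 3 of 8 at Usp2, 4 of 9 at Ciart and 6 of 10 at Fbxl21. It held in 6 of 8 at Npas2, 7 of 11 at Rora and 9 of 10 at Cipc. Where control loci held little coverage, the fitted values depend on the 200 bp added before the log. Whether 6 of 14 exceeds the share over all loci was not tested. For HC against CC_s Usp2 rose by 3.80 (1 of 14 against 8.74%).

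Widths of Dbp were correlated with those of Arntl, which peaks at the opposite time of day, and of Nr1d1, which peaks near it, over the residuals of the libraries from their group means. In H3K4me3 Pearson's r was 0.38 for Arntl and Dbp and 0.42 for Nr1d1 and Dbp (permutation p adjusted over 4 relations = 0.0944 and 0.0776). In H3K27ac it was 0.62 for Arntl and Dbp (permutation p = 0.00271, adjusted p = 0.0108) with a Spearman rho of 0.38 (p = 0.0968), and 0.52 for Nr1d1 and Dbp (adjusted p = 0.0313) with a rho of 0.35. Within the 12-week cohort r was 0.59 and 0.32, and within the 25-week cohort 0.65 and 0.68 (adjusted permutation p between 0.0839 and 0.469). Without the 2 farthest libraries r fell to 0.43 and 0.23, and after quantile normalization it was 0.05 and -0.16, so that the H3K27ac relation rests on those libraries and on the scaling. Both pairs had a positive r in both marks before that normalization. The permutations shuffled residuals over all libraries, although residuals of the same group are not independent. The permutation p-values given here are therefore likely too low, and no relation is taken as established from them.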

How the data were processed

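CUT&Tag peak lists of 84 libraries (4 marks, 8 diet groups) were used. The authors trimmed reads with Trim Galore 0.6.6, aligned them to mm10 (GRCm38) with Bowtie2 2.4.4 and called peaks per library with SEACR 1.3, and the deposited lists give for each peak its position and its total and maximum signal (coverage), unscaled between libraries. The read depth of a library is not given in the sources used here beyond a stated minimum, so that no counting interval can be given.

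The clock genes, the pathway list (20 genes) and the marker lists were chosen with earlier results of these data known. All 10 clock genes are named, and of the pathway list those called in any test, except that some results on that list are not reported here. Peaks touching a promoter window by 1 bp or more were counted. Widths and covered base pairs, as log2(bp + 200) and centred on each library's median over tested features, were fitted in limma 3.58.1 (R 4.3.3; trend and robust) over the 8 groups of a mark, for features with a peak in at least 50% of libraries. Benjamini-Hochberg adjustment ran over all features, with a threshold of 0.05. Counts came from peak positions alone, so that the count test of the study could not be used. Correlations used 100000 permutations, two-sided (scipy 1.17.1). The interval functions, the gain and loss rule and the limma fit of the obese contrast were tested on simulated data. No pair of lists was identical. Alternatives covered scaling, pseudocount, filters, library weights, the replicate block, the treatment field, peak number, window and flank size, overlap and each library left out. Regions free of promoters with H3K27ac in every library, and motifs within them, were defined after the data were seen.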

Additional observations from a re-analysis of the deposited data

How the results depend on the processing

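Of 36 counts of called clock genes or regions, 19 were the same under every alternative, and of 34 results on single genes, 5 kept their side of the threshold throughout; no called direction reversed except where stated. Averaged differences that were not called and lay near 0 changed sign more often, among them Arntl H3K4me3 width in obesity under 7 settings (-0.18 with no centring), and Per2 and Per3 H3K27ac width in obesity under 8 and 4. Numbers of called clock genes moved as follows, and the cause was not tested. Promoter peaks gained or lost: 1 for H3K4me1 in HH against CC_l with windows of 500 bp, and with libraries left out 0 to 1 for H3K27ac in HHC against CCC (without CCC replicate 1), 0 to 2 for H3K4me1 in H against C, and 0 to 1 for H3K27me3 in H against C and in HH against CC_l. Promoter width: 0 to 4 for H3K27ac after weight loss with libraries left out, and 1 for H3K4me1 in obesity with no filter (Dbp, -2.43). H3K4me3 locus: in obesity 1 under quantile normalization (Nr1d2) and 2 with library weights (Cry2 and Nr1d2), and after weight loss 1 with equal numbers of peaks (Arntl). H3K27ac locus: 1 in obesity with library weights (Per1), and after weight loss 1 with a pseudocount of 1000 bp (Arntl) and 0 to 2 with libraries left out. H3K4me1 locus in obesity: 0 to 1 with libraries left out (Clock, without H replicate 1). H3K27me3 locus in obesity: 0 with no centring, a pseudocount of 50 bp, equal numbers of peaks, the stronger 50% of the peaks or 10 kb flanks, and 0 to 1 with libraries left out; under quantile normalization and no filter the 1 gene called was Per3 in place of Cry1. H3K27me3 locus after weight loss: 3 with a pseudocount of 1000 bp, 0 with a filter of 80% of libraries, equal numbers of peaks, the stronger 50% or 10 kb flanks, under which the Clock locus was no longer tested, and 1 to 2 with libraries left out. Distal H3K4me1 regions: 0 to 1 for H against C, 0 to 3 for HH against CC_l and 1 to 2 for HHC against CCC with libraries left out, and 0 for HHC against CCC with equal numbers of peaks or the stronger 50%.

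Correlations in H3K27ac changed for Arntl and Dbp from 0.62 to 0.048 (quantile normalization), 0.43 (without the 2 farthest libraries), 0.59 (12-week cohort) and 0.65 (25-week cohort), and for Nr1d1 and Dbp from 0.52 to -0.16, 0.23, 0.32 and 0.68. The Nr1d2 H3K4me3 locus in H against C reversed to -0.33 with no centring.

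No pairing by replicate number was seen: over 72 same-numbered pairs the correlation of deviations ran from -0.21 to 0.33 with a median of -0.01. None of 12 comparisons with 3 pairs had all above 0.1. Deviations within groups of 2 or 3 libraries say little, so that this check cannot exclude a pairing. With the replicate block, H3K27me3 loci after weight loss gave 2 calls (Clock and Cry2) in place of 1, and the other counts of called clock genes were the same.

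Over all genes, no centring turned the called H3K27ac widths in obesity from 89.9% higher (89 genes) to 2.04% higher (49 genes), and the replicate block changed the H3K27ac width calls after weight loss from 1 to 50 genes.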
